A study of Homo sapiens with 16 samples.

Results

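The genes described here are the transcription factors that drive epithelial-to-mesenchymal transition (EMT), namely ZEB1, ZEB2, SNAI1, SNAI2 and TWIST1, the cadherins CDH1 and CDH2, the adhesion molecule EPCAM, and the mesenchymal products VIM and FN1. These 10 genes were taken by name, with earlier results of these data known, and all 10 were found among the 18332 gene IDs of the deposited table. RNA was sequenced from the established human breast cancer cell lines MDA-MB-468 and MDA-MB-231, which the labels call ER negative, meaning without the estrogen receptor. Cells of each line were kept for 48 hours in glucose at 5 mM (low glucose, the control) or 25 mM (high glucose, standing for hyperglycemia). Each of the 4 groups had 4 replicates, which made 16 libraries. The labels name no genetic change in any group, and each line comes from a single tumor, so a difference between the lines cannot be told apart from any other property by which these lines differ. The labels do not say whether the replicates came from separate cultures, so the spread between them may be partly technical.

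EMT is the program by which epithelial cells loosen their junctions and take on a migratory, mesenchymal form. ZEB, SNAI and TWIST proteins bind E-box motifs and repress epithelial genes, of which CDH1, coding for the junction protein E-cadherin, is the classical target. During the transition E-cadherin and EPCAM decline, while the intermediate filament vimentin (VIM), the matrix protein fibronectin (FN1) and N-cadherin (CDH2) increase. In breast cancer the program is linked to invasion and to loss of the luminal phenotype.

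The libraries held between 14094597 and 24425916 recovered reads, so 3 reads, the floor used here, equalled 0.123 to 0.213 CPM, the unit of reads scaled to library size. Values per gene are normalized read counts, that is, reads divided by the size factor of the library, and comparisons between genes use TPM, which also divide by transcript length. Floors and the intervals called counting intervals cover counting error only. The confidence intervals (CI) of fold changes come from the limma fits and rest on the spread between libraries. In the deposited values ESR1, the estrogen receptor gene, stayed at or under the floor in every MDA-MB-231 library but averaged 3.68 CPM in low-glucose and 2.70 CPM in high-glucose MDA-MB-468. The basal keratins KRT5 and KRT14 were at or under the floor in MDA-MB-231. In MDA-MB-468 KRT5 averaged 964 CPM in low glucose. Among the markers of other cell types, the fibroblast gene DCN was at or under the floor in all 16 libraries. The leukocyte list (PTPRC, CD68 and LYZ) summed to between 129 and 142 CPM in MDA-MB-231, nearly all of it CD68, and to between 1.237 and 3.12 CPM in MDA-MB-468, where LYZ was at 0. The fibroblast list summed to between 33.7 and 40.6 CPM in MDA-MB-231 and between 15.6 and 21.3 CPM in MDA-MB-468, and the endothelial list to between 12.2 and 16.2 and between 27.8 and 37.5 CPM. In bulk RNA, fewer cells of a type and less RNA per cell cannot be told apart.

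The first comparison asked how the 10 genes differed between the lines. ZEB1, ZEB2, SNAI2, VIM and FN1 were higher in MDA-MB-231 at both glucose concentrations, and CDH1 and EPCAM were higher in MDA-MB-468. SNAI1, an EMT factor, was called higher in MDA-MB-468 in high glucose only. Of the 8 genes tested in low glucose, limma called 5 lower and 2 higher in MDA-MB-468, beside 40.6% and 45.3% of all 16637 genes tested (85.9% called in either direction), and in high glucose it called 5 lower and 3 higher, beside 41.4% and 44.6% of 16470 (86.1% in all). The values of the lines did not overlap for 7 of the 8 genes in low and for 8 of 8 in high glucose, as for 81.3% and 81.5% of all genes. TWIST1 and CDH2 did not reach the filter of 0.5 CPM in 2 or more samples in any comparison. ZEB1, ZEB2 and SNAI2 passed it in the comparison of the lines through MDA-MB-231 alone, and CDH1 in low glucose through MDA-MB-468 alone. For such genes, also in the lists below, the filter largely sets the direction of the call.

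**Figure D1:**
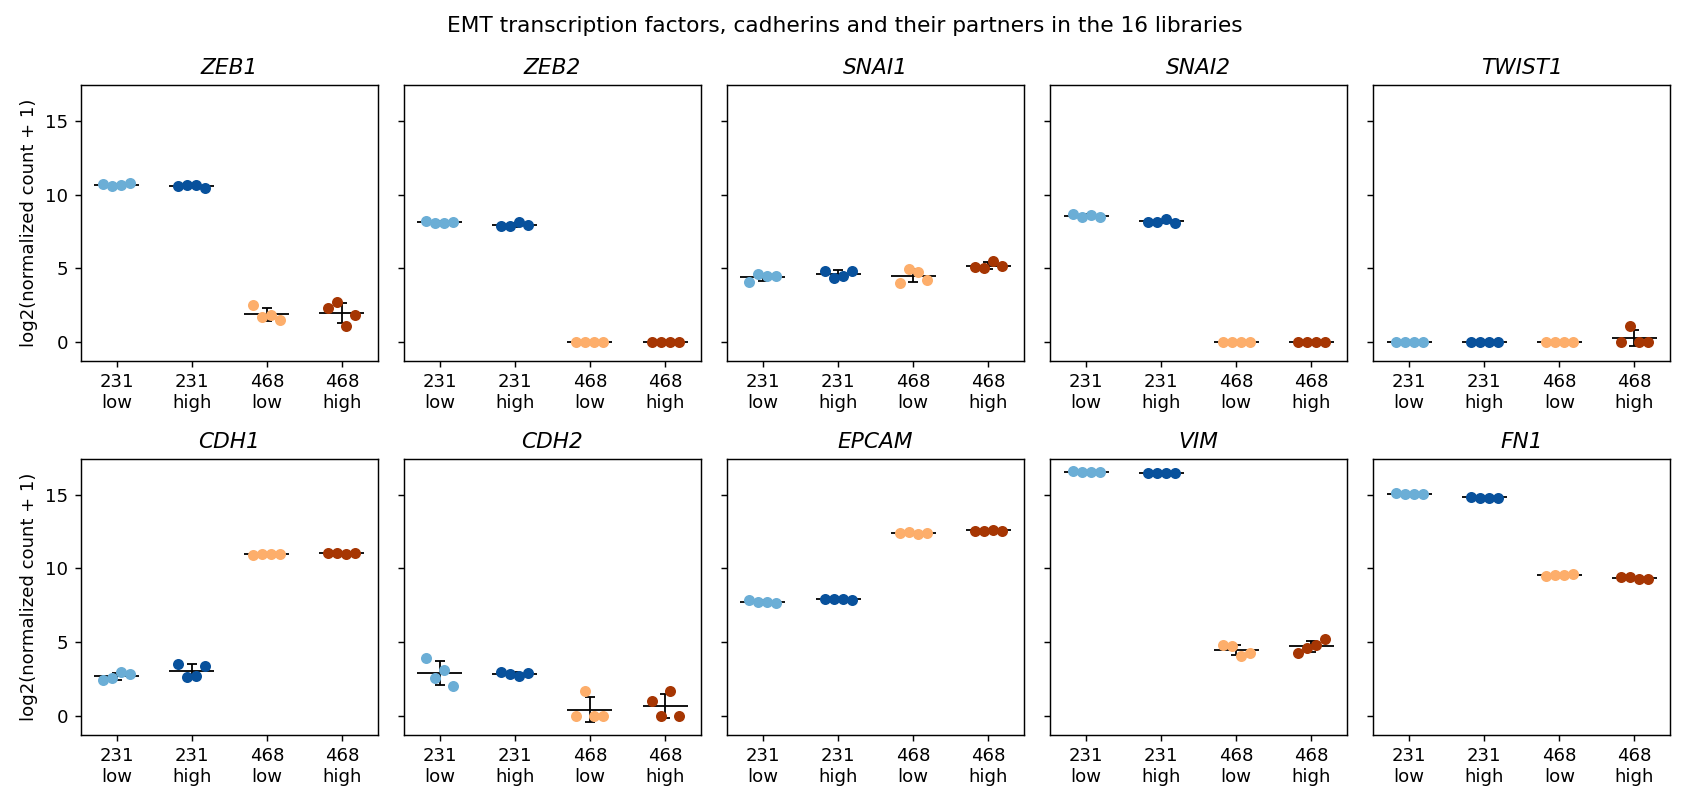
Normalized read counts of the 10 genes on a log2(value + 1) scale, with 1 point per library, a bar at the mean of the 4 libraries and an error bar of 1 SD, and the column labels give the cell line and the glucose concentration. ZEB1, ZEB2, SNAI2, VIM and FN1 lie higher in MDA-MB-231, CDH1 and EPCAM lie higher in MDA-MB-468, SNAI1 overlaps between the lines in low glucose, and TWIST1 has a single value above 0.

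ZEB1 (ENSG00000148516, GRCh37 chromosome 10, 31607424 to 31818742, plus strand), a zinc-finger repressor of CDH1, had normalized read counts of 1662, 1538, 1607 and 1742 in the low-glucose MDA-MB-231 replicates. The low-glucose MDA-MB-468 replicates had 4.74, 2.21, 2.63 and 1.80, from 2 to 6 reads each. All MDA-MB-231 libraries were far above all MDA-MB-468 libraries, at a ratio of mean CPM of 522. The few ZEB1 reads of MDA-MB-468 were similar in number to those of the antisense gene ZEB1-AS1, which overlaps ZEB1 on the opposite strand and averaged 3.75 reads in low glucose. The use of strand in counting was not stated, so reads of the pair may be mixed there.

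ZEB2 (ENSG00000169554, chromosome 2, 145121931 to 145278624, minus strand), the other member of the ZEB family, had 294, 275, 274 and 286 normalized reads in low-glucose MDA-MB-231 and 0 in all 8 MDA-MB-468 libraries. Against the floor of 3 reads per library its level was at least 77.4-fold higher in low-glucose MDA-MB-231. The 4 low-glucose MDA-MB-468 libraries together allow a level of up to 0.0431 CPM.

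SNAI2 (ENSG00000019549, chromosome 8, 49830157 to 49834299, minus strand), also named SLUG, showed the same pattern, with 412, 352, 396 and 362 normalized reads in low-glucose MDA-MB-231 and 0 in every MDA-MB-468 library. It was at least 104-fold higher in MDA-MB-231 by the same floor. SNAI1 (ENSG00000124216, chromosome 20, 48599517 to 48605423, plus strand), its paralog SNAIL, behaved differently. It had 15.7, 23.5, 21.2 and 21.6 normalized reads in low-glucose MDA-MB-231 against 15.03, 29.9, 26.3 and 17.96 in low-glucose MDA-MB-468, and the values of the lines overlapped. The log2 fold change of MDA-MB-468 over MDA-MB-231 was 0.08 in low glucose (95% CI -0.46 to 0.61, limma adjusted p 0.766) and 0.58 in high glucose (95% CI 0.17 to 0.99, limma adjusted p 0.0122). The low-glucose value changed sign in 6 alternatives. In high glucose the call was lost with DESeq2 (0.56, adjusted p 0.0558), after quantile rescaling (0.26, adjusted p 0.198) and with the replicate block plus length correction (0.43, adjusted p 0.0743).

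TWIST1 (ENSG00000122691, chromosome 7, 19060614 to 19157259, minus strand), a basic helix-loop-helix factor, had 1 read in all 16 libraries, in replicate 2 of high-glucose MDA-MB-468. In low-glucose MDA-MB-231 the count of 0 in 74415486 reads allows up to 0.0403 CPM. A difference was not detectable at this depth, and no fold was formed.

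Among the products, VIM (ENSG00000026025, chromosome 10, 17270240 to 17279592, plus strand) gave the largest ratio among the genes with reads in both lines. Its normalized read counts in low glucose were 99379, 93985, 97669 and 93877 in MDA-MB-231 against 26.9, 25.4, 15.8 and 17.96 in MDA-MB-468. The ratio of mean CPM was 4057. In MDA-MB-231 VIM held rank 10 of 17647 genes by mean TPM in low glucose, and in MDA-MB-468 it held rank 13233. The opposite-strand genes VIM-AS1 and ENSG00000234961 averaged 64.5 and 11 reads in low-glucose MDA-MB-231 against at least 87399 reads of VIM per library.

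FN1 (ENSG00000115414, chromosome 2, 216225163 to 216300796, minus strand) was high in MDA-MB-231, with 35762, 33990.4, 34607 and 34301 normalized reads in low glucose, but it was also clearly expressed in MDA-MB-468, with 705, 739.9, 765 and 789.5. The ratio was 41.9, and the log2 fold change was -5.53 (standard error 0.04, adjusted p by limma 1.71e-14). CDH2 (ENSG00000170558, chromosome 18, 25512843 to 25757910, minus strand), the mesenchymal cadherin, was near the floor in both lines. The 4 low-glucose MDA-MB-231 libraries held 35 reads of it together and the 4 MDA-MB-468 libraries held 2, a ratio of 16.4 with a counting interval of 4.20 to 140. Replicate 1 of MDA-MB-231 held 20 of the 35 reads, and without it the ratio was 10.4 (counting interval 2.43 to 94.0). Both MDA-MB-468 reads came from replicate 2, without which no ratio could be formed. MDA-MB-231 thus held few reads of either cadherin of the list.

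CDH1 (ENSG00000039068, chromosome 16, 68771195 to 68869440, plus strand) had 1941, 2062, 1987 and 2039 normalized reads in low-glucose MDA-MB-468. The low-glucose MDA-MB-231 replicates had 4.29, 4.89, 6.71 and 6.17, from 5 to 6 reads each. Its mean CPM was 401-fold higher in MDA-MB-468. EPCAM (ENSG00000119888, chromosome 2, 47572297 to 47614740, plus strand), an epithelial adhesion and signaling molecule, had 5421, 5628, 5279 and 5384 normalized reads in MDA-MB-468 and 235, 215, 212 and 198 in MDA-MB-231, both in low glucose. The ratio was 27.8, and MDA-MB-231 had 190 to 329 reads of EPCAM per library beside the 5 to 6 of CDH1.

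Per length of the canonical transcript, the order of the genes in low-glucose MDA-MB-231 was VIM (mean 6201 TPM), FN1 (574), ZEB1 (38.3), SNAI2 (24.2), EPCAM (19.3), ZEB2 (4.23), SNAI1 (1.67), CDH2 (0.259), CDH1 (0.159) and TWIST1 (0). Neighbors in this order did not overlap over the 4 libraries, except CDH2 and CDH1. With the length of the longest transcript instead, EPCAM (24.1 TPM, 22.6 to 26.1) stood above SNAI2 (23.3 TPM, 21.53 to 25.02) and their ranges overlapped, so the order of this pair in low glucose depends on the transcript chosen. In low-glucose MDA-MB-468 the order was EPCAM (512 TPM), CDH1 (60.9), FN1 (13.04), SNAI1 (1.91), VIM (1.46), ZEB1 (0.0698) and CDH2 (0.0200), followed by ZEB2, SNAI2 and TWIST1 at 0. The ranges of SNAI1 and VIM overlapped, as did those of the genes from ZEB1 downward. SNAI1 was the EMT factor of the list with the highest level in MDA-MB-468. In high-glucose MDA-MB-231, EPCAM and SNAI2 had 21.4 and 18.7 TPM by the canonical length with overlapping ranges, and 26.8 and 18.1 TPM by the longest transcript without overlap.

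Promoter sequence is shown for ZEB1, ZEB2, VIM and FN1, 4 genes that were higher in MDA-MB-231. The windows are the 250 bases before a RefSeq transcription start on GRCh38.p14, given 5′ to 3′ on the strand of the gene, with motif matches in capitals. Motifs were searched on both strands: the E-box CAGGTG bound by ZEB and SNAI factors (in 17.5% of the 35116 RefSeq windows of this length), the GC box GGGCGG (42.6%), TATAAA (10.7%), the cAMP response element TGACGTCA (1.65%) and the AP-1 element TGANTCA (6.57%). Matches of 1 motif may overlap each other.
FN1, chr2:215436069-215436318, minus strand: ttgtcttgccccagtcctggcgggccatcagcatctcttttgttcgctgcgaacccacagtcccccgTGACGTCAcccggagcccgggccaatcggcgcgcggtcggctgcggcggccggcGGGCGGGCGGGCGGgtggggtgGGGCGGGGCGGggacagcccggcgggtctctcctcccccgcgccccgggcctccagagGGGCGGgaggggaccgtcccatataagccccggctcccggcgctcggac
VIM, chr10:17227991-17228240, plus strand: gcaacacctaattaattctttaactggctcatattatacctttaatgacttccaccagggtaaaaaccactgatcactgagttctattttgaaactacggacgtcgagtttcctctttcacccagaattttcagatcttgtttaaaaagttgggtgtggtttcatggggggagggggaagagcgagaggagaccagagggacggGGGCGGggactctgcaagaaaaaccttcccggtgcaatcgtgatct
ZEB1, chr10:31318167-31318416, plus strand: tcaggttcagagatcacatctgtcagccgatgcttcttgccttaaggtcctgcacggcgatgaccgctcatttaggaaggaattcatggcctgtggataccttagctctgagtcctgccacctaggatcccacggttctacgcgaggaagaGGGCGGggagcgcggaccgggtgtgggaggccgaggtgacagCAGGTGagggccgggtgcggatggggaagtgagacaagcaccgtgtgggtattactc
ZEB2, chr2:144520120-144520369, minus strand: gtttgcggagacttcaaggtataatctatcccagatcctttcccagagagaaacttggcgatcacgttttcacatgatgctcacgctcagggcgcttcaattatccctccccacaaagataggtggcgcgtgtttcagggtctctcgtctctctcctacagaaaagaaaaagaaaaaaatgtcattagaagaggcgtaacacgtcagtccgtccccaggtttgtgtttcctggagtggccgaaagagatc
The FN1 window held TGACGTCA at position -183, counted from the start site, and 6 matches of GGGCGG. The VIM window held GGGCGG at -46. The ZEB1 window, the most upstream of 7 in the table, held GGGCGG at -99 and the E-box CAGGTG at -57. Of the ZEB1 windows not shown, that at chr10:31318966-31319215 held 2 E-box matches and the rest held none. No motif of these was found in the ZEB2 window. A match describes letters and not a bound site. The promoter table had windows for 5 of the 10 genes, and SNAI1, SNAI2, TWIST1, CDH1 and EPCAM had none.

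The second comparison asked whether 25 mM glucose altered the genes in MDA-MB-231. SNAI2, FN1 and VIM were downregulated, and none of the 8 genes tested was upregulated. Among all 14884 genes tested in this line 15.1% were called, 9.37% lower and 5.71% higher (850 higher and 1395 lower, or 1027 and 1114 after quantile rescaling). The 3 called genes were also the ones whose groups did not overlap, as in 18.7% of all genes. The median log2 fold change of the 8 genes was -0.09, against 0.00 over all genes. The 8 include CDH1, which passed the filter through high-glucose libraries alone.

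SNAI2 had 284, 289, 329 and 270.1 normalized reads in high glucose, all below the 4 low-glucose values given above. Its mean fell from 381 ± 28.2 (SD, n = 4) to 293 ± 25.2, which gave a log2 fold change of -0.38 (standard error 0.07, adjusted p by limma 0.00179). The call held in all 20 alternatives, with adjusted p values between 0.000490 and 0.0433.

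FN1 had 29597, 28747, 28833 and 28557 normalized reads in high glucose. All 4 lay below the lowest low-glucose library. Its mean fell from 34665 ± 773 to 28933 ± 457, which gave a log2 fold change of -0.26 (standard error 0.03, adjusted p by limma 1.81e-06).

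VIM had 89894, 90507, 89664 and 91218 normalized reads in high glucose. These values stood just below the low-glucose ones, with means of 90321 ± 696 and 96228 ± 2742. The log2 fold change was -0.09 (standard error 0.03, adjusted p by limma 0.0262), and 10 of 20 alternatives lost the call. Leaving out low-glucose replicate 1 or 3 gave an adjusted p of 0.0970 or 0.0684, and leaving out high-glucose replicate 1, 2, 3 or 4 gave 0.0762, 0.0580, 0.0798 or 0.0545. Quantile rescaling set the value to 0, since VIM held rank 3 by normalized count in each of the 8 libraries.

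The other factors were not called. ZEB1 had 1525, 1601, 1648 and 1427 normalized reads in high glucose, which overlapped the low-glucose values (log2 fold change -0.08, 95% CI -0.18 to 0.02, limma adjusted p 0.310). ZEB2 had 237, 236, 284 and 244, where replicate 3 alone reached into the low-glucose range (log2 fold change -0.17, 95% CI -0.33 to -0.02, limma adjusted p 0.126). Without high-glucose replicate 3 its log2 fold change was -0.24 with an adjusted p of 0.0405. SNAI1 had 27.2, 18.9, 21.4 and 27.6, which overlapped as well (log2 fold change 0.20, 95% CI -0.29 to 0.69, limma adjusted p 0.634).

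On the epithelial side, EPCAM in high-glucose MDA-MB-231 had 239, 244, 239 and 228 normalized reads, with 3 of 4 above every low-glucose value. The log2 fold change of 0.14 did not pass the test (95% CI -0.01 to 0.30, limma adjusted p 0.217). CDH1 had 10.7, 5.26, 5.57 and 9.51, or 32 reads in the group against 23 in low glucose (log2 fold change 0.39, 95% CI -0.50 to 1.28, limma adjusted p 0.608). CDH1 passed the filter here through high-glucose libraries alone, so the filter largely set the sign of this estimate. Its interval spans over 1 log2 unit, so a change of that size was not detectable at this depth. CDH2, below the filter, had 6.81, 6.31, 5.57 and 6.66 against 14.3, 4.89, 7.82 and 3.08 in low glucose.

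The third comparison put the same question to MDA-MB-468. SNAI1 and EPCAM were upregulated and FN1 was downregulated, while CDH1 and VIM were not called. Only these 5 genes passed the filter in this line, in which 47.6% of all 15757 genes were called (24.9% higher, 22.7% lower). The 3 called genes were again those whose groups did not overlap, as in 42.5% of all genes.

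SNAI1 had 33.1, 31.7, 44.6 and 34.6 normalized reads in high glucose. All 4 values lay above the highest low-glucose value of 29.9. The mean rose from 22.3 ± 6.94 to 36.0 ± 5.89 (SD, n = 4), which gave a log2 fold change of 0.71 (standard error 0.24, adjusted p by limma 0.0213). These levels rest on 19 to 30 reads per library in low and 29 to 41 in high glucose. The call was lost without low-glucose replicate 1 (adjusted p 0.0719) or 4 (0.0586), without high-glucose replicate 3 (0.0710) and without variance moderation (0.0648).

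EPCAM had 6081, 6026, 6302 and 6076 normalized reads in high glucose, and every value was above the highest of low glucose. The mean rose from 5428 ± 146 to 6121 ± 123, which gave a log2 fold change of 0.17 (standard error 0.03, adjusted p by limma 0.000114). CDH1 had 2120.3, 2139, 1993 and 2097, which overlapped the low-glucose values (log2 fold change 0.06, 95% CI -0.02 to 0.13, limma adjusted p 0.200).

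FN1 in MDA-MB-468 had 673, 689, 611 and 610.3 normalized reads in high glucose, all below the lowest low-glucose value of 705. The mean fell from 749.7 ± 36.3 to 646 ± 41.1, which gave a log2 fold change of -0.22 (standard error 0.05, adjusted p by limma 0.00326). VIM had 18.5, 22.9, 27.5 and 35.4, which overlapped low glucose (log2 fold change 0.26, 95% CI -0.28 to 0.80, limma adjusted p 0.426). ZEB1 had 3.89, 5.46, 1.14 and 2.53 in high glucose and ZEB2 and SNAI2 remained at 0. CDH2 held 2 reads in low and 3 in high glucose over 4 libraries each.

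**Figure D2:**
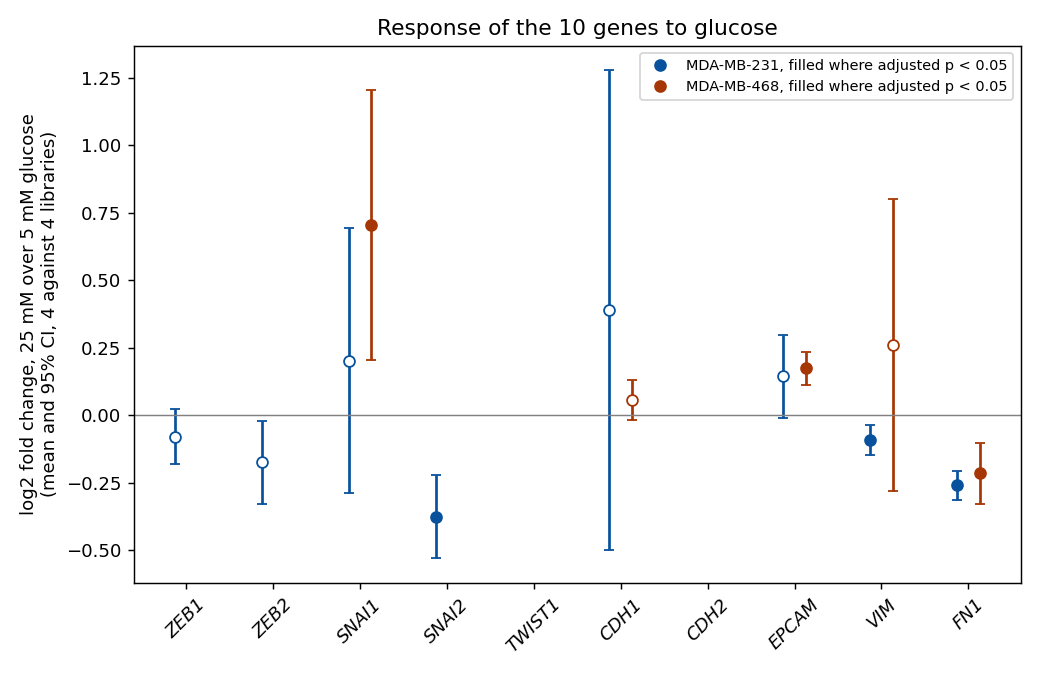
Log2 fold change of high over low glucose for each gene that passed the filter, in MDA-MB-231 (blue) and MDA-MB-468 (orange), with 95% confidence intervals from 4 against 4 libraries; filled points passed an adjusted p of 0.05 and genes without a point were not tested. FN1 lies below 0 in both lines, at -0.26 and -0.22, and the widest intervals belong to SNAI1, to VIM in MDA-MB-468 and to CDH1 in MDA-MB-231, which have few reads.

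Transcript length moved with the response over all genes. In MDA-MB-231 the median log2 fold change was 0.04 for transcripts under 2000 nucleotides and -0.06 for those of 8000 or more, where 18.6% of genes were called lower and 3.04% higher. In MDA-MB-468 these medians were 0.07 and -0.11, with 41.6% of the longest class called lower. FN1 (8390 nucleotides) and ZEB2 (9265) belong to the longest class, and EPCAM (1547) and SNAI1 (1705) to the shortest. After correction for length FN1 stayed called at -0.21 in MDA-MB-231 (limma adjusted p 1.67e-05) as well as at -0.14 in MDA-MB-468 (limma adjusted p 0.0239). EPCAM in MDA-MB-468 stayed called at 0.13 (limma adjusted p 0.000985), SNAI2 in MDA-MB-231 at -0.40 (limma adjusted p 0.000847) and VIM in MDA-MB-231 at -0.11 (limma adjusted p 0.00295). CDH1 in MDA-MB-468 became called with the correction, at 0.08 (limma adjusted p 0.0375), and was not called when the replicate block was added to it (adjusted p 0.0512).

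**Figure D3:**
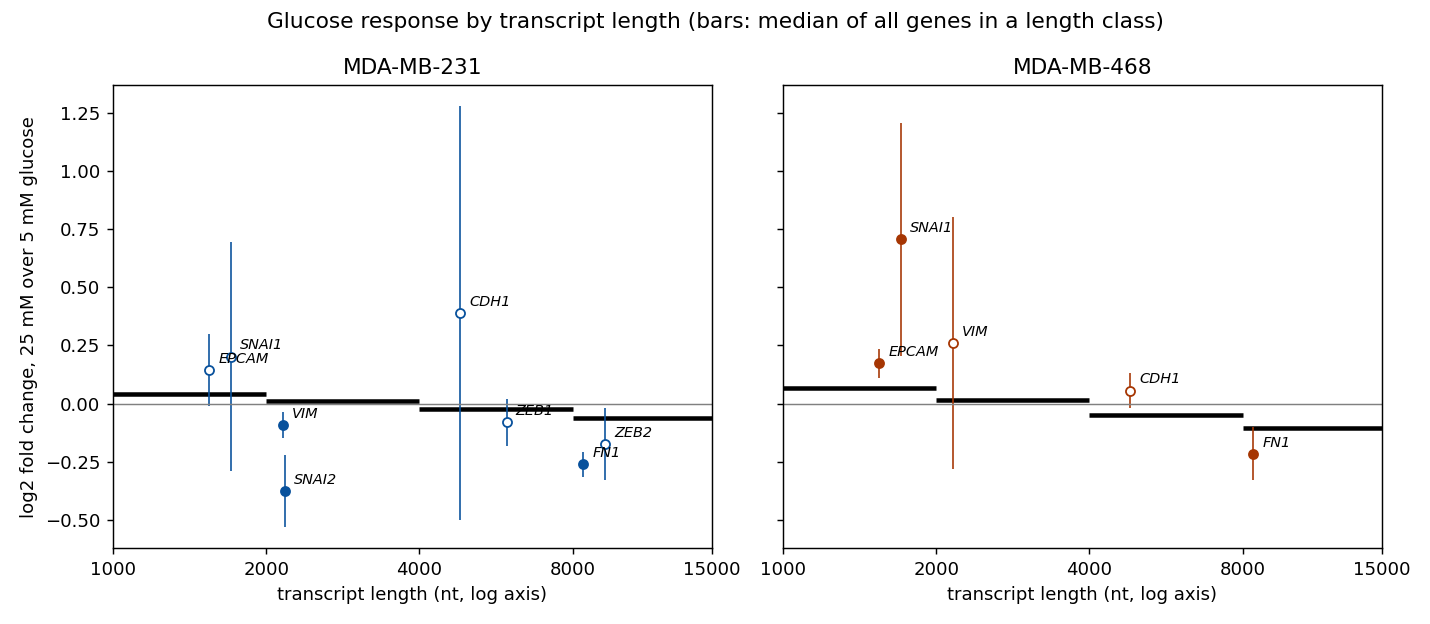
Log2 fold change of high over low glucose against transcript length on a log axis, with points and 95% confidence intervals for the tested genes (filled: adjusted p under 0.05) and black bars for the median of all genes in 4 length classes, the last of which is open-ended. The bars fall with length, ending at -0.06 in MDA-MB-231 but at -0.11 in MDA-MB-468, and FN1 lies below the bar of its class in both lines.

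The difference in glucose response between lines was tested with the interaction contrast, MDA-MB-468 minus MDA-MB-231. Limma called 0 of the 8 genes tested, where 30.9% of all 17115 genes were called (17% positive and 13.9% negative). None had an unadjusted p under 0.05 either, the lowest being 0.0720 for SNAI2, and edgeR and DESeq2 on the recovered reads also called 0. SNAI2 was called with a pseudocount of 8 (0.37, limma adjusted p 0.0336) and without variance moderation (0.38, adjusted p 0.00364). The difference for FN1 was 0.04 (95% CI -0.08 to 0.16) and that for EPCAM was 0.03 (95% CI -0.09 to 0.15). For SNAI1 it was 0.50 (95% CI -0.15 to 1.15) and for VIM 0.35 (95% CI -0.13 to 0.83), intervals that reach 1.15 and 0.83 on the side of a higher value in MDA-MB-468. ZEB2 and SNAI2 had no reads in MDA-MB-468, so their contrast only mirrors the MDA-MB-231 value. ZEB1 had 13 reads over the 4 MDA-MB-468 libraries at each glucose concentration (difference 0.17, 95% CI -0.61 to 0.95). CDH1 had 23 and 32 reads over the 4 MDA-MB-231 libraries in low and high glucose (-0.33, 95% CI -0.84 to 0.18). With so few reads for these genes, the count of 0 of 8 cannot be set against the share over all genes.

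Factors and partners around the 10 genes were followed in 9 further lists. Of the other EMT transcription factors, 3 of 11 tested in MDA-MB-231 were downregulated and 0 upregulated, beside 9.37% and 5.71% of all genes. LEF1, a mediator of WNT signaling, had a log2 fold change of -0.28 (limma adjusted p 0.0471), which 15 of 20 alternatives did not call, among them leaving out any single library other than low-glucose replicate 4. In MDA-MB-468, where 24.9% of all genes rose and 22.7% fell, 2 of 9 rose and 1 fell, with FOXC1 at 0.20, SOX9 at 0.16 and SOX4 at -0.29 (log2 fold changes). Between the lines in low glucose 6 of 12 were higher and 6 lower in MDA-MB-468, beside 45.3% and 40.6% of all genes. KLF8 and FOXC1 were 34.2-fold and 8.55-fold higher there. HMGA2, a chromatin factor, was 209-fold higher in MDA-MB-231.

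Epithelial regulators, which maintain epithelial splicing and junction genes, stood on the side of CDH1. In low glucose 10 of 11 were higher in MDA-MB-468 and 1 was lower, beside 45.3% and 40.6% of all genes, with a median log2 fold change of 6.49 as fitted and 4.88 with genes at 0 in a line set to their bound, against 0.08 over all genes. Only 7 of the 11 passed the filter within MDA-MB-231. The others entered this comparison through MDA-MB-468 alone, so their direction was largely set by the filter. GRHL2, a factor that activates CDH1, was at 151 CPM in MDA-MB-468 and at 7 reads over the 4 low-glucose MDA-MB-231 libraries. The splicing regulator ESRP1 was 326-fold higher in MDA-MB-468. The exception was KLF4, at 102 CPM in MDA-MB-231 against 6.66 CPM in MDA-MB-468.
In MDA-MB-468, 6 of the 11 were higher and 2 lower in high glucose, beside shares of 24.9% and 22.7% over all genes. ELF3 rose from 249 to 345 CPM (log2 fold change 0.50, standard error 0.04, adjusted p by limma 1.60e-08) and GRHL3 from 16.5 to 22.1 CPM (0.44, limma adjusted p 0.000412). GRHL2 had -0.10 and KLF4 -0.47 on the log2 scale, and the GRHL2 call was lost after the length correction and without low-glucose replicate 3 or 4 or high-glucose replicate 3. In MDA-MB-231 2 of 7 rose and 0 fell (5.71% and 9.37% over all genes), among them KLF4 (102 to 122 CPM, log2 fold change 0.24, limma adjusted p 0.000157). A single gene of this list was called without low-glucose replicate 1 or 3 or high-glucose replicate 1, 2 or 3.

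Of the other classical cadherins, 3 of 6 were higher and 3 lower in MDA-MB-468 in low glucose, close to the shares of 45.3% and 40.6% over all genes. CDH11 averaged 137 CPM and CDH4 39.9 CPM in low-glucose MDA-MB-231, with 0 reads in low-glucose MDA-MB-468, which makes them at least 649.9-fold and 190.0-fold higher in MDA-MB-231. CDH3 (P-cadherin) averaged 66.4 CPM in MDA-MB-468 and was 28.9-fold higher there. Per transcript length, MDA-MB-231 in low glucose had a mean of 48.9 TPM for CDH11 and 14.4 TPM for CDH4 beside the 0.259 TPM of CDH2. In high glucose CDH24 fell from 7.64 to 4.92 CPM in MDA-MB-231 (log2 fold change -0.64, standard error 0.13, adjusted p by limma 0.00236) and rose from 15.4 to 23.2 CPM in MDA-MB-468 (0.62, standard error 0.08, adjusted p by limma 5.21e-06). The interaction for CDH24 was 1.25 (standard error 0.16, adjusted p by limma 1.44e-05). CDH11 had -0.12 in MDA-MB-231, a call lost in 8 of 20 alternatives, among them those without high-glucose replicate 3 or 4 and without low-glucose replicate 2, and CDH3 had -0.15 in MDA-MB-468.

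Catenins, which tie cadherins to actin, and nectins had 6 of 12 tested genes higher and 6 lower in MDA-MB-468 in low glucose, also close to those shares. CTNNA1 (alpha-catenin) averaged 908 CPM in MDA-MB-231 against 74.9 CPM in MDA-MB-468 in low glucose, a 12.1-fold difference opposite to that of CDH1. NECTIN4 was at least 365-fold higher in MDA-MB-468. NECTIN3 had 2 reads over the 4 low-glucose MDA-MB-468 libraries and 80.1 CPM in MDA-MB-231. Of 11 tested in MDA-MB-468, 5 were higher and 2 lower in high glucose, beside 24.9% and 22.7% of all genes, and of 11 in MDA-MB-231 0 were higher and 2 lower, beside 5.71% and 9.37%. CTNNB1 (beta-catenin) rose from 408 to 529 CPM in MDA-MB-468 (log2 fold change 0.40, standard error 0.03, adjusted p by limma 5.69e-09). NECTIN1 moved in opposite directions, at -0.44 in MDA-MB-231 (limma adjusted p 0.000193) and 0.52 in MDA-MB-468 (limma adjusted p 1.85e-09), with an interaction of 0.95 (standard error 0.07, adjusted p by limma 4.34e-08). CTNNA1 had -0.16 and ARVCF -0.29 in MDA-MB-468.

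Of the proteases and ligases that shed or degrade E-cadherin, 1 of 8 fell in MDA-MB-231, ADAM10 at -0.19, and 0 rose, against 9.37% and 5.71% of all genes. In MDA-MB-468 2 rose and 3 fell, against 24.9% and 22.7%, within 0.22 of 0 on the log2 scale. In low glucose 3 of 8 were higher and 5 lower in MDA-MB-468, against 45.3% and 40.6% of all genes, the named ones lying between -1.32 (NCSTN) and 0.85 (ADAM17).

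Corepressors through which ZEB and SNAI proteins act were expressed in both lines, 6 of 11 higher and 5 lower in MDA-MB-468 in low glucose (45.3% and 40.6% over all genes). In high-glucose MDA-MB-231 5 of 11 were lower and 0 higher, where 9.37% of all genes were lower and 5.71% higher. EZH2, the histone methyltransferase of Polycomb, fell from 48.2 to 37.1 CPM (log2 fold change -0.40, standard error 0.05, adjusted p by limma 2.82e-05), and the DNA methyltransferase DNMT1 fell from 281 to 220.1 CPM (-0.38, standard error 0.03, adjusted p by limma 4.88e-07). In MDA-MB-468 3 rose and 1 fell, where 24.9% and 22.7% of all genes did, with CTBP1 at 0.40, KDM1A at 0.37 and HDAC2 at -0.17. The HDAC2 call was lost after the length correction, with and without the replicate block. Kinases and ligases that control SNAI protein stability were called in 0 of 8 cases in MDA-MB-231 (1 with the length correction). In MDA-MB-468 4 of 8 were lower (2 to 4 over the alternatives) and 0 higher, where 22.7% of all genes were lower. GSK3B and FBXO45, each at -0.20, were among these 4.

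Other mesenchymal genes fell more often than they rose in MDA-MB-231, with 10 of 21 downregulated and 4 upregulated and a median log2 fold change of -0.17, beside 9.37% and 5.71% of all genes. LOXL2, a matrix cross-linking enzyme, fell from 314 to 252 CPM (log2 fold change -0.34, standard error 0.03, adjusted p by limma 1.81e-06). LOX and PDGFRB rose, by 0.32 and 0.29. In MDA-MB-468 5 of 21 rose and 5 fell, near the 24.9% and 22.7% of all genes, with a median of -0.03. TGFBI rose from 5.27 to 10.4 CPM (log2 fold change 1.004, standard error 0.10, adjusted p by limma 5.54e-07), while NT5E (CD73) fell from 152 to 72.0 CPM (-1.05, standard error 0.04, adjusted p by limma 3.88e-12). Between the lines 16 of 23 were lower and 6 higher in MDA-MB-468 in low glucose, against 40.6% and 45.3% of all genes. AXL, a receptor kinase, was 669.8-fold higher in MDA-MB-231, whereas FAP had no reads in low-glucose MDA-MB-231 and was at least 67.3-fold higher in MDA-MB-468.

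Other epithelial genes were upregulated more often than downregulated in both lines. In MDA-MB-231 7 of 24 were upregulated and 0 downregulated, with a median log2 fold change of 0.09 against 0.00 over all genes, of which 5.71% were upregulated and 9.37% downregulated. MAL2 rose from 17.2 to 28.0 CPM (log2 fold change 0.67, standard error 0.06, adjusted p by limma 1.25e-06) and the protease inhibitor SPINT1 from 9.29 to 11.9 CPM (0.34, limma adjusted p 0.0196). The number of these calls depended on single libraries. It was 2 without low-glucose replicate 2, 4 without low-glucose replicate 4, and 2, 1, 4 or 3 without high-glucose replicate 1, 2, 3 or 4. SPINT1 was not called without low-glucose replicate 2 or 3 or high-glucose replicate 2. In MDA-MB-468 16 of 27 rose and 2 fell, with a median of 0.12 beside 0.00 over all genes, of which 24.9% rose and 22.7% fell. The tight junction gene CLDN1 rose from 22.2 to 43.5 CPM (0.9997, standard error 0.05, adjusted p by limma 4.75e-10). DSP, a desmosome gene, had -0.19. In low glucose 26 of 27 were higher and 0 lower in MDA-MB-468, against 45.3% and 40.6% of all genes. Of these 27 genes, 24 passed the filter within MDA-MB-231, and the others entered this comparison through MDA-MB-468 alone.

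**Figure D4:**
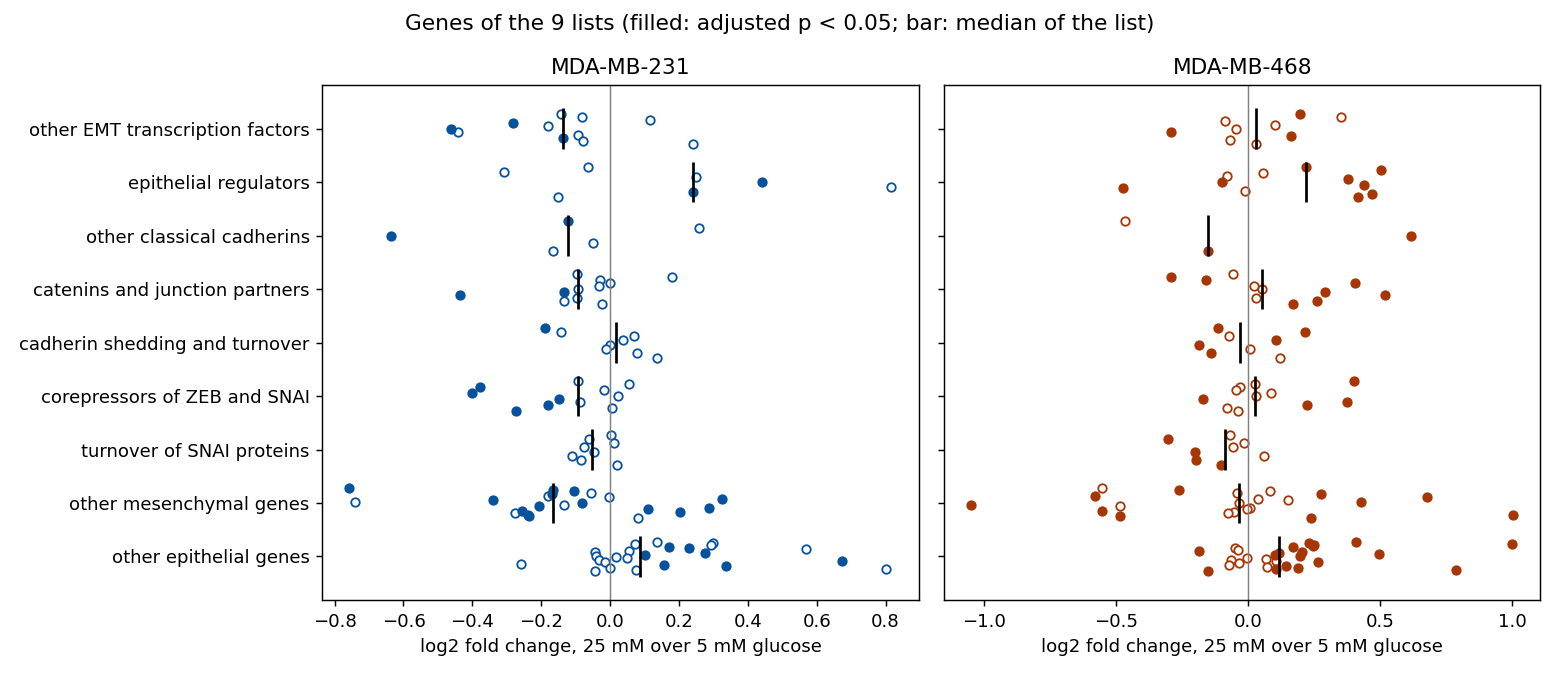
Log2 fold change of high over low glucose for the tested genes of the 9 lists in each line, with 1 point per gene, filled where the adjusted p was under 0.05, and a black bar at the median of each list; the lines have different axis ranges. The bar of the epithelial genes lies to the right of 0 in both lines (0.09 and 0.12), and that of the mesenchymal genes lies to the left, at -0.17 in MDA-MB-231 but near it in MDA-MB-468 (-0.03).

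Genes whose profile over the 8 libraries of a line was most like that of a member are given as a description, since glucose group and library are shared. For FN1 in MDA-MB-231 these were ZFP36L1 (Pearson r 0.997), LMNB2 (0.995) and ITSN1 (0.995), and in MDA-MB-468 they were SRGAP1 (0.983), ZYG11A (0.982) and FBXL4 (0.980). SNAI2 was followed most closely by ARHGAP10 (0.988), SCLT1 (0.986) and TCF20 (0.982). The closest genes to EPCAM in MDA-MB-468 were FKBP5 (0.993), HMGB3 (0.991) and BLCAP (0.990), and in MDA-MB-231 CIDECP1 (0.980), UBB (0.967) and EMILIN2 (0.967). NAV3 (0.976), CNOT9 (0.9497) and FERMT2 (0.945) came closest to ZEB1, SLIT2 (0.994), SMARCE1 (0.966) and EMC1 (0.959) to ZEB2, and CCDC80 (0.987) and PRMT6 (0.978) were among the closest to VIM, all in MDA-MB-231. For CDH1 in MDA-MB-468 they were TET2 (0.930), RYBP (0.929) and GALNT7 (0.917). No member appeared among the closest genes, as members were left out of this search.

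Several cell type markers moved with glucose in MDA-MB-468, where 24.9% of all genes tested were called higher and 22.7% lower. Of the estrogen receptor markers both tested were called lower, ESR1 at -0.41 and GREB1 at -2.35 on the log2 scale, and the summed level of ESR1, GREB1 and TFF1 was between 11.5 and 13.4 CPM in the low-glucose and between 3.90 and 4.75 CPM in the high-glucose libraries, with TFF1 at or under the floor. Of the 4 basal markers KRT14 (0.79, from 69.2 to 117 CPM) and KRT5 (0.19) were called higher and EGFR (-0.08) lower. Of the markers of other cell types, PTPRC (-1.36, from 0.558 to 0.194 CPM) and KDR (-0.30) were called lower, and VWF (0.82, from 0.520 to 0.922 CPM) and COL1A1 (0.28) higher. PTPRC passed the filter largely through the low-glucose libraries, so the filter largely set the direction of its call. The part of these markers in the changes of SNAI1, EPCAM and FN1 in this line was not tested. In MDA-MB-231 EGFR (-0.13) was called lower and PDGFRB (0.29) higher, beside 9.37% and 5.71% of all genes. Their part in the changes of SNAI2, FN1 and VIM was not tested.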

How the data were processed

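RNA sequencing values of 18332 Ensembl gene IDs in 16 samples were analyzed. The authors trimmed reads with Trimmomatic, aligned them with TopHat to hg19 with an Ensembl annotation and used DESeq2, while the submitters' processing notes name edgeR and hg38; the counter and its use of strand are not given in the sources used here. The deposited signal is the authors' read counts after division by the size factor of each library, so whole reads were recovered (100% of values whole, largest deviation 5.82e-05 reads).

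Genes reaching 0.5 CPM in at least 2 of the fitted samples were tested with limma 3.58.1 (lmFit, eBayes with trend, two-sided, R 4.3.3) on log2(value + 1), which understates changes of low genes, with Benjamini-Hochberg adjustment over all genes and a threshold of 0.05. The lines and glucose groups were compared in separate fits, and the interaction over all 16 samples. edgeR 4.0.16 and DESeq2 1.42.0 on the recovered reads, other pseudocounts, filters and scalings, the replicate block, a transcript length correction and leaving out each replicate were alternatives. The scripts were tested on simulated data. Coordinates and transcript lengths are from GENCODE lifted to GRCh37, which gave 17647 of the IDs a symbol. The members and lists were chosen with earlier results of these data known. Named list genes were up to 2 rises and 2 falls per list and comparison, the largest among called genes that averaged 5 CPM or more in one group and whose groups did not overlap. Some genes that these rules name are not reported here. GSC, CTNNA2, CTNNA3, THY1, COL3A1, CD24, PGR, CD3E, PECAM1, TEK, COL1A2 and 7 cadherins (CDH6, CDH7, CDH8, CDH9, CDH12, CDH20, CDH22) were not analysed here.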

Additional observations from a re-analysis of the deposited data

Results flagged for a closer look

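Among the 33 combinations of gene and group with any spread, 2 had a library that stood apart from the other 3. In both the others were at 0, so any single read passes this rule. The usual chance rate of about 1 in 20 does not apply to such ties. TWIST1 in high-glucose MDA-MB-468 had a highest normalized read count of 1.09, a single read in replicate 2, with 0 in the others. CDH2 in low-glucose MDA-MB-468 had a highest value of 2.21 in replicate 2, which was 2 reads, with 0 in the others.

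Over all genes the limma interaction called 30.9% (17% positive and 13.9% negative). The 37 list genes named in a glucose comparison and reported here had been chosen by a call within a line. Their count can therefore not be set against this share. Of the 37 genes, the limma interaction called 21 at an adjusted p under 0.05. The log2 fold change of MDA-MB-468 minus that of MDA-MB-231 was positive for 13 of them: CDH24 (1.25), TGFBI (1.244), NECTIN1 (0.95), CLDN1 (0.93), CTBP1 (0.50), LOXL2 (0.49), EZH2 (0.49), KDM1A (0.46), CTNNB1 (0.40), ADAM15 (0.36), DNMT1 (0.35), FOXC1 (0.34) and SOX9 (0.30). This difference was negative for 8, namely NT5E (-0.84), KLF4 (-0.71), MAL2 (-0.61), ARVCF (-0.47), SPINT1 (-0.26), SOX4 (-0.20), DSP (-0.14) and CTNNA1 (-0.13). Its sign does not tell which line changed more. The mean normalized count of NT5E changed by -51.6% in MDA-MB-468 and by -13.3% in MDA-MB-231 in high glucose. That of EZH2 changed by 6.22% and -24.4%. These genes were named because they were called in a line, so the number is no estimate for the lists.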

How the results depend on the processing

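Over the alternatives other than leaving out a replicate, limma or the alternative tool called 2 to 3 of the 10 genes for glucose in MDA-MB-231, 2 to 4 in MDA-MB-468, 7 to 8 between the lines in low and 7 to 9 in high glucose, and 0 to 1 for the interaction. The main fits tested 8 of the 10 genes in each comparison, or 5 for glucose in MDA-MB-468. In the same order, the main fits called 15.1%, 47.6%, 85.9%, 86.1% and 30.9% of all genes. The interaction count of 1 came with a pseudocount of 8 and with no variance moderation, and the gene was SNAI2 in each. Leaving out 1 replicate gave 2 to 3, 2 to 3, 7 to 7, 8 to 8 and 0 to 0. The SNAI1 difference between the lines in low glucose changed sign with quantile rescaling (-0.36), the length correction (-0.063, also with the block), and without MDA-MB-231 low-glucose replicate 1 (-0.04) or MDA-MB-468 low-glucose replicate 2 (-0.074) or 3 (-0.01), within a range of -0.074 to 0.24 over single replicates left out. The interaction changed sign for EPCAM with quantile rescaling (-0.020) and without MDA-MB-231 low-glucose replicate 1 (-0.013, range -0.013 to 0.068), for FN1 with quantile rescaling (-0.0017) and for ZEB1 without MDA-MB-468 high-glucose replicate 2 (-0.071, range -0.071 to 0.46). None of these was called, and the cause was not tested. Without variance moderation 1297 genes were called in MDA-MB-231 in place of 2245.

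Deviations of same-numbered samples correlated between -0.0400 and -0.00512 in MDA-MB-231 and between 0.0167 and 0.0319 in MDA-MB-468. Every MDA-MB-231 replicate matched another number best. In MDA-MB-468 replicates 1, 3 and 4 matched their own number best and replicate 2 did not. The replicate numbers thus did not pair the samples in MDA-MB-231, and a weak pairing in MDA-MB-468 was not settled. With the replicate block, 1624 and 7383 genes were called for glucose, and among the 10 genes the VIM call in MDA-MB-231 was lost (adjusted p 0.0570). Depth limits CDH1 and CDH2 in MDA-MB-231, and ZEB1, CDH2 and TWIST1 in MDA-MB-468, to at most 20 reads per library, and VIM in MDA-MB-468 to between 18 and 42.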
